A study of Mus musculus with 33 samples.

Results

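Broad H3K4me3 domains of wild type (WT) mouse embryonic stem cells (mESC) were chosen by their length, as the domains of the WT mESC H3K4me3 list that were at least 30 kb long. They numbered 1422 of 15272 domains and made up 77.7 Mb of the 216.1 Mb in the list. ChIP-seq, which sequences the DNA that an antibody to a histone mark or a protein pulls down, was done in E14 mESC and in embryoid bodies (EB), aggregates formed in hanging drops in which the stem cells differentiate, taken at weeks 1, 2 and 3. Each stage was studied in WT cells and in E14 cells with a knockout of Uhrf1 (KO), a protein that binds methylated DNA and H3K9me3. Of 33 samples, 25 had a list of enriched regions: 8 of H3K4me3, 8 of H3K27me3, 2 of H3K9me3, 6 of the mESC factors Oct4, Sox2 and Nanog, and 1 of Uhrf1 in WT mESC. Every group was 1 library. The WT and KO lines came from another laboratory, the mESC were kept undifferentiated with leukemia inhibitory factor on gelatin or on mouse fibroblast feeders, and whether the KO line was 1 clone is not given in the sources used here.

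H3K4me3 is laid down at promoters by the Set1 and Mll complexes, and most promoters carry it as a narrow peak around the start of the gene. Wider stretches arise where the mark runs on over a gene body or where several marked promoters lie close together, and wide marks over single genes are known from regulators of cell identity. H3K27me3, the mark of Polycomb repression, can lie on the same DNA in stem cells, a state called bivalent, whereas H3K9me3 marks repressed repeats and heterochromatin.

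Sequences are shown first for sites on which later results turn, all from the mm9 build (NCBIM37). The first set gives the 101 bases around a WT Oct4 summit, on the plus strand, from 2 broad domains holding a pluripotency gene in which such a window held the octamer ATGCAAAT on either strand and lay outside exons. The octamer, the core site of Oct4, is in capitals as it reads on the plus strand. The site of the Lin28a domain was at chr4:133572403-133572503, in an intron of Lin28a and 2.30 kb from its start. That of the Zfp42 domain was at chr8:44392501-44392601, 0.188 kb upstream of the start.
Lin28a site: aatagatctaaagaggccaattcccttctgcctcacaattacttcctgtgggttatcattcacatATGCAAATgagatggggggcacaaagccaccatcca
Zfp42 site: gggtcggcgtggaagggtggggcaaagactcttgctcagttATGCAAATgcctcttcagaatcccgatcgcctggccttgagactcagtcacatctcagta

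The second set gives the 100 bases just upstream of the start of 4 genes in broad domains, read on the strand of the gene, with each CpG in capitals, because CpG density is compared further on between the marked and unmarked parts of these domains. They lay at chr3:34548827-34548926 on the plus strand for Sox2, chr3:133207355-133207454 on the minus strand for Tet2, chr17:35642882-35642981 on the plus strand for Pou5f1, which encodes Oct4, and chr9:91260649-91260748 on the minus strand for Zic1. They held 8, 20, 2 and 10 CpGs.
Sox2 upstream: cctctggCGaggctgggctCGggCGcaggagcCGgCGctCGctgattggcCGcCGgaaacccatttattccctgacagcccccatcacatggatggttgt
Tet2 upstream: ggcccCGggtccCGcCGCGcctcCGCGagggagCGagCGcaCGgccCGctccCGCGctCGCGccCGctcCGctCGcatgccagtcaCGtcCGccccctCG
Pou5f1 upstream: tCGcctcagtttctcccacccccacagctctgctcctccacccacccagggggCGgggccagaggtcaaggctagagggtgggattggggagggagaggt
Zic1 upstream: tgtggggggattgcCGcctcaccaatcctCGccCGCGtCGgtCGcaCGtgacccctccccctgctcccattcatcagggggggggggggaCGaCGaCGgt

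Facts of the whole series that touch the results come before them. The lists give regions and not reads, so the depth of the libraries is unknown, and intervals are at the 95% level, by Wilson's method for shares, by Newcombe's for differences and exact Poisson for rates. They cover counting error over domains or summits only. H3K4me3 domains were made of bins of 1300 bp in both mESC lists and of 350 or 400 bp in the EB lists, so stage and bin length cannot be told apart where a length in EB is set beside one in mESC. The KO mESC H3K27me3 list was short, with 722 domains against 8161 in WT mESC. Of 10 markers of mESC, 9 had an H3K4me3 domain within 2 kb of their start in both mESC lists, all but Esrrb. In EB 5 of the 10 had one in WT and 2 in KO at week 1. The counts were 8 and 9 at week 2, and 9 in both at week 3, as many as in mESC. The mark at these starts thus did not fall steadily over the weeks. Of 8 markers of the EB lineages, WT and KO had 4 and 2 marked in mESC. They had 7 and 6 at weeks 1 and 2, and 5 each at week 3, where Tnnt2 and Myh6 were unmarked in both. Of 8 markers of feeder fibroblasts, 5 had one in both mESC lists and Postn, Dcn and Lum had none, and all 8 had one in the 4 lists of weeks 2 and 3. None of these 8 genes had its start in a broad domain. The Uhrf1 start was marked in all 8 H3K4me3 lists, and a promoter mark checks neither the protein nor the deletion. Chromosomes 8 and 11 stood apart in several lists. H3K9me3 domains covered 81.0% of chromosome 8 and 76.2% of chromosome 11 in WT mESC, where the 17 other autosomes ranged from 16.6% to 46.9%. In KO mESC they covered 30.6% of chromosome 8 and 96.3% of chromosome 11, where the others ranged from 14.2% to 58.5%. Several results are therefore given without these chromosomes too.

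The length of a broad domain in WT mESC is what chose it, so lengths and counts from that library are a description. The shortest was 31.2 kb, the median 44.2 kb (quartiles 35.1 and 61.1 kb) and the longest 280.8 kb, and 102 were at least 100 kb long. The 109 domains just inside the threshold, all of 31.2 kb, had a median signal of 12.5 mean reads per bin, and the 129 just outside, of 29.9 kb, had 13.8. Breadth did not go with height: the median signal was 13.6 in broad domains, 13.6 in those of 15 to 30 kb and 13.3 in those under 15 kb. The caller had left no gap under 5.20 kb between domains of this list, so a broad domain can bridge shorter stretches without the mark.

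Broad domains mostly held several promoters. A protein-coding start lay in 1329 of 1422 (93.5%, interval 92.1 to 94.6), where 60.5% of all WT mESC H3K4me3 domains held one. The share was 82.1% in the 2934 domains of 15 to 30 kb, a difference of 11.3 percentage points (9.37 to 13.2). A longer interval holds more starts by its length alone, and per Mb the order was reversed, with 51.5 starts in broad domains, 57.3 in those of 15 to 30 kb and 69.7 in all domains that were not broad. Together the broad domains held 4004 coding starts, 29.3% of those in any domain. No coding start was found in 93 of them, 1 in 354, 2 in 370, 3 in 260, 4 in 119 and 5 or more in 226, and the most in 1 domain was 26. In the 354 with a single start the mark reached to both sides about equally, a median of 19.9 kb upstream (quartiles 10.1 and 29.6) and 19.2 kb downstream (10.3 and 30.3), and the downstream side was the longer in 48.3%. Of the 93 without a start, 50 overlapped a coding gene and 43 did not.

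Of the 10 longest domains all but 1 held 7 or more coding starts. The longest, at chr11:98572501-98853300, held the starts of Med24, a subunit of Mediator, of the nuclear receptor genes Thra, Nr1d1 and Rara, of the replication licensing gene Cdc6 and of 5 other genes. The second, at chr11:69553901-69817800 and 263.9 kb long, held 26 starts, among them Polr2a, the largest subunit of RNA polymerase II. Another 4 of the 10 were on chromosome 8 and were named by Tppp3, Use1, Nfix and Cbfb, with 14, 20, 20 and 15 starts. A domain of 252.2 kb on chromosome 17 ran from Rab11b through Daxx and Tapbp with 17 starts, and 1 of 227.5 kb on chromosome 3 held Txnip and 6 other starts. On chromosome 13 a domain of 234.0 kb held 19 starts, most of them replication-dependent histone genes of the Hist1 cluster, from Zfp322a to Hist1h4d, and had the highest signal of the 10, at 33.4. The exception was a domain of 239.2 kb at chr13:74521201-74760400 with only 2 coding starts, Gm10116 and the zinc finger gene Zfp825.

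Among gene lists, the count of members with a start in a broad domain is set beside 17.9% of all 22238 coding gene symbols. Of the 13585 symbols with a start in any WT mESC H3K4me3 domain, 29.3% had it in a broad domain. The replication-dependent histone genes, which lie packed in clusters, had 43 of 67 there, in 7 domains. Zinc finger genes named Zfp had 141 of 367 in 93 domains, ribosomal protein genes 32 of 79 in 30 domains, and glycolysis genes 8 of 18, among them Aldoa, Eno1, Pgam1 and Tpi1. Hox genes had 19 of 39, all of them in the Hoxb and Hoxc clusters. Of 12 genes of H3K27 methylation and demethylation 6 were inside, namely Ezh1, Suz12, Jarid2, Mtf2 and Rbbp4, subunits or partners of the Polycomb complex PRC2, and the demethylase Kdm6b. Of 14 genes of the H3K4 methylation complexes 2 were inside, the shared subunit Dpy30 and the methyltransferase Mll2. Signal genes of the Nodal, Fgf and Wnt pathways had 7 of 26, cell cycle and related regulators 6 of 16, markers of the EB lineages 1 of 8 (Tubb3), developmental regulators outside the Hox clusters 7 of 50 and genes of the 2-cell stage 1 of 12. Olfactory receptor genes had 8 of 1113. All 26 signal genes had a start in some domain, so their 26.9% was below the 29.3% of symbols with a start in a domain. By contrast, only 20 of the 1113 olfactory receptor genes and 1 of the 12 genes of the 2-cell stage had a start in any domain. Clustered genes share a domain, so genes of 1 list are not independent of each other. Broad domains held 49.3% of the coding starts of chromosome 11, among them that of Ezh1, and 38.1% of those of chromosome 8. The gene lists were not counted without these chromosomes.

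Pluripotency genes were found both inside and outside broad domains. The core list had 4 of 9 annotated genes inside: Pou5f1, Sox2, Sall4 and Lin28a. The list also held the symbol Tcf3, which stands here for the E2A gene on chromosome 10 and was left out of this count, whereas the repressor often called Tcf3 in stem cells is annotated as Tcf7l1. The E2A start lay in a broad domain as well. The naive list had 7 of 18 inside: the demethylating enzymes Tet1 and Tet2, the signal genes Stat3 and Socs3, the transcription factor genes Klf5 and Zfp42, and Dppa5a. All 18 naive genes and 8 of 9 core genes had their start in an H3K4me3 domain of some length. The Sox2 domain, at chr3:34535801-34570900, was 35.1 kb long and held no other coding start. The Pou5f1 domain, at chr17:35600501-35657700, was 57.2 kb long and also held H2-Q10, Tcf19 and Cchcr1.

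**Figure D1:**
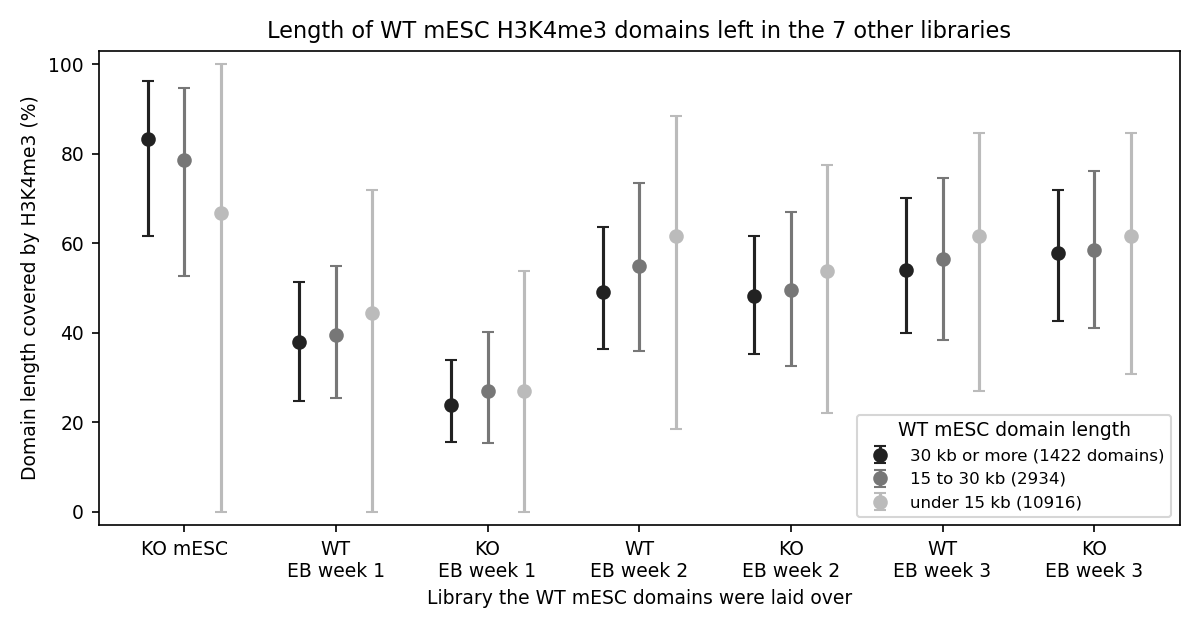
Share of the length of each WT mESC H3K4me3 domain (y axis, percent) that was covered by H3K4me3 domains of each of the 7 other libraries (x axis). Points are medians and bars run between the quartiles of the domains, in 3 classes of WT mESC length; broad domains have the highest median in KO mESC (83.3%) and the lowest in KO EB at week 1 (23.9%).

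In KO mESC most of the length of the broad domains was still marked, as the plot of covered length by library shows. H3K4me3 domains of KO mESC covered at least 50% of the length of 1211 of 1422 broad domains (85.2%, interval 83.2 to 86.9), where 65.2% of all WT mESC H3K4me3 domains reached this. Domains of 15 to 30 kb reached it in 77.9%, a difference of 7.21 percentage points (4.78 to 9.54), and of 6.95 points (4.28 to 9.44) without chromosomes 8 and 11. The median covered length was 83.3%, and over all broad domains together 76.8% of the length was covered. All of the length was covered in 272 domains, 75% to under 100% in 575, 50% to under 75% in 364, 25% to under 50% in 156, less than 25% but some in 35, and none in 20, so that 1402 met a KO domain (73.0% of all WT mESC H3K4me3 domains did). A single KO domain met 1051 of them and 351 met 2 or more, and in 951 (66.9%) the longest KO domain met was itself at least 30 kb. The number and length of the KO domains met were taken for broad domains only, without a share over all domains.

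The lists were also compared the other way round, since the WT domains had been chosen for their length in the WT library. KO mESC had 1416 domains of at least 30 kb, nearly the number in WT mESC. WT domains covered at least 50% of 1282 of these (90.5%, interval 88.9 to 91.95), with a median of 85.3%, and 942 (66.5%) met a WT domain of at least 30 kb. No share over all 11509 KO mESC H3K4me3 domains was computed beside these counts. They do not show whether KO broad domains differed from other KO domains. The share covered at 50% was thus higher for KO broad domains in the WT list than for WT broad domains in the KO list, and none of the KO broad domains was wholly without a WT domain. The whole WT list covered 216.1 Mb and the whole KO list 188.4 Mb, and the part of this in the difference was not tested.

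The broad domains with least left in KO mESC had low signals in WT mESC. The median WT signal was 7.11 in the 20 with none left, 9.41 in the 35 with under 25%, 10.8 in the 156 with 25% to under 50%, 13.0 in the 364 with 50% to under 75%, 14.4 in the 575 above that and 15.1 in the 272 fully covered. The signal and the domain come from the same library, so this order is a description. The 5 longest of the 20 were named by Sh3pxd2a (50.7 kb, with no coding start), Gm5773 with Tdpoz4 (48.1 kb), Zic1 with Zic4 (46.8 kb), the interferon-inducible genes Mndal, Ifi203 and Ifi202b (41.6 kb) and Usp32 (40.3 kb, with no coding start). Their WT signals were between 6.22 and 7.85. A coding start lay in 10 of the 20, and 8 of the 20 were on chromosomes 8 and 11. Of the 5, all but Usp32 carried the mark in every EB list. The domain at Zic1, a transcription factor gene of neural progenitors, was covered on 11.1% of its length in WT and 7.48% in KO at week 1, on 31.6% and 24.7% at week 2, and on 58.1% and 69.2% at week 3. At week 3 the Mndal domain was covered on 70.2% in WT and 42.3% in KO, that of Sh3pxd2a on 50.9% and 55.2%, and that of Gm5773 on 35.1% and 28.5%. The Usp32 domain was at 0.0% in the 3 WT EB lists and at 0.0% to 8.68% in the 3 KO EB lists.

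The 5 longest of the fully covered domains included the Hist1 domain and that of Gm10116, both described above. The others held Cdk2, Rps26 and 11 more starts on chromosome 10 (224.9 kb), Trp53, the p53 gene, with Eif4a1 and 14 more starts on chromosome 11 (191.1 kb), and Slc3a2, Polr2g and 13 more starts on chromosome 19 (148.2 kb). The KO domains over them were longer than the WT domains, at 249.6, 252.2, 284.7, 208.0 and 284.7 kb in the order given. Across all 1422, the longest KO domain met was longer than the WT domain in 418 (29.4%), a count made for broad domains only.

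In EB the broad domains were covered in part and in pieces. Coverage of at least 50% was found at week 1 in 377 domains in WT (26.5%, interval 24.3 to 28.9; 41.1% of all WT mESC H3K4me3 domains) and in 83 in KO (5.84%, 4.73 to 7.18; 23.8% of all). At week 2 it was found in 678 in WT (47.7%, 45.1 to 50.3; 58.5% of all) and 657 in KO (46.2%, 43.6 to 48.8; 52.8% of all). At week 3 it was found in 833 in WT (58.6%, 56.0 to 61.1; 60.2% of all) and 914 in KO (64.3%, 61.8 to 66.7; 62.3% of all). Nearly every broad domain met some EB domain, from 1380 in KO at week 1 (69.2% of all) to 1416 in KO at week 2 and in WT at week 3 (86.1% of all for both). Compared with domains of 15 to 30 kb, broad domains reached 50% less often at weeks 1 and 2, by -6.58 points in WT (-9.40 to -3.69) and -6.13 in KO (-7.77 to -4.38) at week 1, and by -10.6 (-13.7 to -7.41) and -3.39 (-6.54 to -0.22) at week 2. Without chromosomes 8 and 11 these differences were -8.99 and -6.53 at week 1, and -10.01 and -6.96 (-10.6 to -3.29 for KO) at week 2. At week 3 the intervals of the difference held 0, from -3.75 to 2.48 points in WT and from -1.13 to 4.96 in KO.

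The pieces in EB were short. The longest EB domain that met a broad domain had a median length of 10.8 kb in WT and 6.65 kb in KO at week 1, 14 and 12.6 kb at week 2, and 15.6 and 17.2 kb at week 3, against 39.0 kb in KO mESC, where bins were longer. An EB domain of at least 30 kb met 93 broad domains in WT and 17 in KO at week 1, 179 and 143 at week 2, and 254 and 274 at week 3. Joining EB domains up to 2 kb apart left the shares at 50% within their intervals. The smallest gaps were already 1050 to 1600 bp in the EB lists, so this joining reached only the shortest of their gaps. In the WT mESC list the smallest gap was 5200 bp. The part of unlike gaps in the short EB pieces was therefore not tested. Coverage of 50% was reached in all 7 other H3K4me3 lists by 65 broad domains (4.57%), in KO mESC alone by 234 (16.5%) and in none by 119 (8.37%). These counts, and those of EB domains of at least 30 kb, were made for broad domains only. Without a share over all WT mESC H3K4me3 domains beside them, they do not show whether broad domains differed from the others.

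Between KO and WT EB the difference in covered length was largest at week 1. The median covered length at week 1 was 37.8% in WT and 23.9% in KO, and it was lower in KO in 1279 of 1422 domains (89.9%) and higher in 122. Among all other WT mESC domains it was lower in KO in 59.8%, but 3386 of these had no coverage in either list, and among those covered in at least 1 list it was lower in 79.1%, against 91.0% of such broad domains. The log2 ratio of the covered length, KO over WT, was -0.63 over all broad domains and -0.48 over the others. At week 2 the medians were 49.0% and 48.1%, with 790 lower in KO (55.6%, against 53.1% of the others) and 622 higher. Among domains covered in at least 1 list, coverage was lower in KO in 55.7% of broad domains and in 60.3% of the others. The log2 ratio at week 2 was -0.022 over broad domains and -0.14 over the others. For broad domains it was -0.082 without chromosomes 8 and 11, which moved in opposite directions. Without them 49.3% of broad domains were covered at 50% in WT (46.2 to 52.5) and 43.3% in KO (40.3 to 46.4). At week 3 the medians were 54.0% and 57.8%, with 553 lower (38.9%, against 35.8% of the others) and 822 higher. Among domains covered in at least 1 list, coverage was lower in KO in 39.0% of broad domains and in 39.7% of the others. The log2 ratio was 0.067 over broad domains, 0.039 over broad domains without chromosomes 8 and 11, and 0.039 over the others. With 1 library per group these differences have no replicate check. The KO week 1 list had bins of 350 bp against 400 bp in WT and held 32 domains of at least 30 kb against 123 (213 against 356 at week 2), and the part of the bin length in the week 1 difference was not tested.

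**Figure D2:**
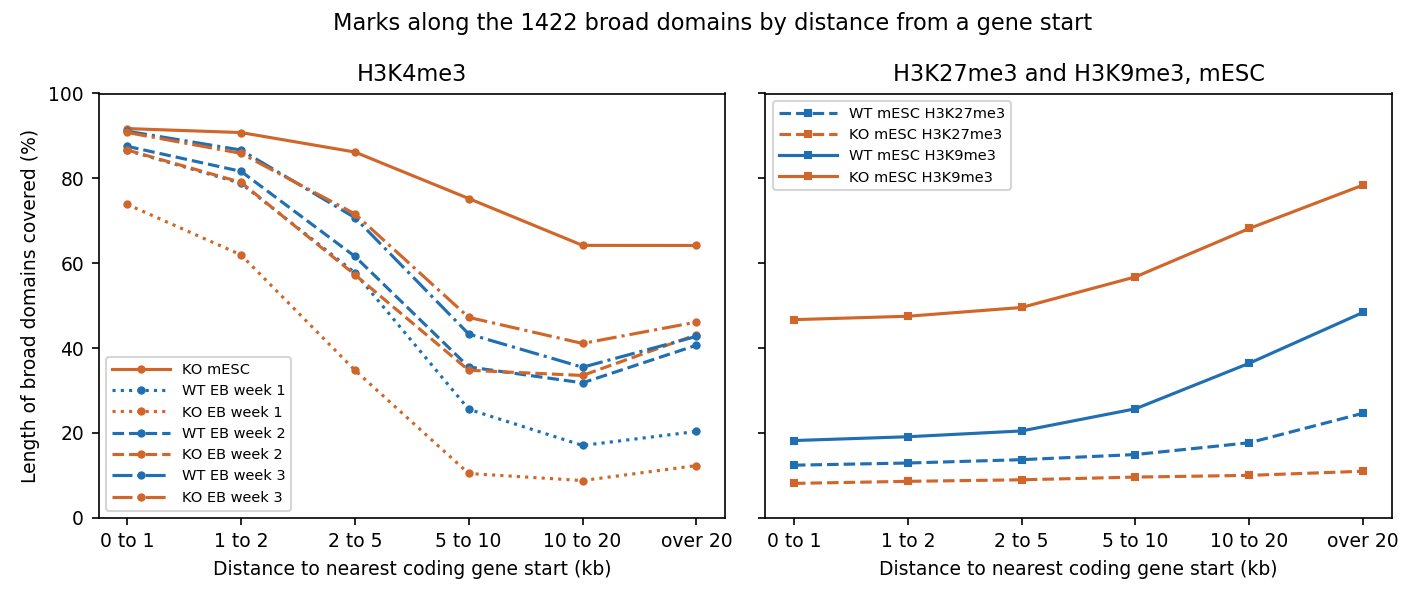
Share of the length of the 1422 broad domains (y axis, percent) covered by H3K4me3 domains of the 7 other libraries (left) and by H3K27me3 and H3K9me3 domains of mESC (right), by distance to the nearest coding gene start (x axis, kb). Blue lines are WT and orange lines KO; on the left, coverage is highest within 1 kb of a start (73.9% to 91.7%), and on the right H3K9me3 is highest beyond 20 kb.

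The share of length still marked was highest near gene starts. In KO mESC, 91.7% of the length within 1 kb of a coding start was covered, 86.2% at 2 to 5 kb, 75.3% at 5 to 10 kb and 64.2% beyond 20 kb. Of the whole length of the broad domains 59.0% lay beyond 5 kb from a start, and of the length covered in KO mESC 52.8% did, against 30.9% in WT and 23.1% in KO EB at week 1 and 41.6% to 45.0% in the 4 later lists. In WT EB at week 1 the values fell from 86.6% within 1 kb to 57.8% at 2 to 5 kb, 25.6% at 5 to 10 kb and 17.1% at 10 to 20 kb. KO EB at week 1 had 73.9%, 34.8%, 10.4% and 8.79% at the same distances, so that the gap between KO and WT was smaller within 1 kb of a start than at 2 to 10 kb. At week 3 WT and KO EB had 91.1% and 90.8% within 1 kb and 35.5% and 41.1% at 10 to 20 kb. The profile of the distance plot kept its shape without chromosomes 8 and 11, where KO mESC had 92.1% within 1 kb and 72.5% beyond 20 kb. Coverage was also higher in domains with more starts, and the median in WT EB at week 1 was 17.9% in domains without a coding start, 27.2% with 1 start and 54.3% with 5 or more.

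CpG density followed the same axis. Broad domains held 14.8 CpGs per kb, fewer than the 15.5 in domains of 15 to 30 kb and the 17.5 in those under 15 kb, at GC contents of 46.4%, 45.7% and 45.9%. Within 1 kb of a coding start the broad domains held 41.0 CpGs per kb, and beyond 2 kb 11.4 to 12.0. In 100 bp tiles within 1 kb of a start there were 42.1 CpGs per kb where KO mESC was marked and 28.3 where it was not. From 1 to 10 kb the direction per kb was opposite in each distance class, with 11.7 at 2 to 5 kb where KO mESC was marked and 13.4 where it was not. Unmarked tiles there were richer in GC, at 48.5% against 45.9% at 2 to 5 kb. Relative to the number expected from C and G content, CpGs were fewer in marked tiles only at 2 to 5 kb (0.223 against 0.228). The ratio was higher in marked tiles at 1 to 2 kb (0.262 against 0.257) and at 5 to 10 kb (0.224 against 0.217). Beyond 20 kb marked tiles again had more CpGs per kb, 12.2 against 10.5. For WT EB at week 3 marked tiles had more CpGs than unmarked ones at each of the 6 distances, 42.9 against 21.5 within 1 kb and 13.99 against 9.79 beyond 20 kb.

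H3K27me3 lay on few of the broad domains. WT mESC H3K27me3 covered at least 50% of 204 of them (14.3%, interval 12.6 to 16.3), where 29.4% of all WT mESC H3K4me3 domains reached this. Domains of 15 to 30 kb reached it in 21.4%, so broad domains did so less often by -7.02 points (-9.32 to -4.62), and by -7.37 points (-9.79 to -4.78) without chromosomes 8 and 11. Overlap of any length was found in 472 broad domains (33.2%, and 35.8% of all), which was 2.35 points from domains of 15 to 30 kb, with an interval that held 0 (-0.59 to 5.33), and -2.89 points from all domains that were not broad (-5.42 to -0.28). Without chromosomes 8 and 11 the latter difference was -6.93 points (-9.71 to -3.97). In KO mESC, whose list was short, 102 were covered at 50% (7.17%; 6.06% of all). In EB the counts were 163 in WT and 199 in KO at week 1 (11.5% and 13.99%; 15.9% and 16.8% of all), 154 and 225 at week 2 (10.8% and 15.8%; 22.7% and 21.6% of all), and 215 and 187 at week 3 (15.1% and 13.2%; 27.5% and 18.5% of all). By overlap of any length, which a longer domain meets more easily, the broad domains were above the share of all domains in several of these lists. The counts were 252 in KO mESC (17.7%, and 8.27% of all), 627 in WT and 574 in KO at week 1 (44.1% and 40.4%; 24.8% and 24.6% of all), 342 and 418 at week 2 (24.1% and 29.4%; 26.7% and 25.8% of all), and 527 and 338 at week 3 (37.1% and 23.8%; 34.5% and 21.4% of all). H3K27me3 bins were 1500 to 1800 bp long and the lists covered between 3.17% and 43.9% of the genome, so these counts are of lists with unlike reach.

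The 204 broad domains with H3K27me3 on at least 50% of their length in WT mESC had less H3K4me3 left in KO mESC. Of these, 144 were covered at 50% by KO H3K4me3 domains (70.6%, interval 64.0 to 76.4) against 1067 of the other 1218 (87.6%, 85.6 to 89.3), a difference of -17.0 points (-23.8 to -10.9) and of -19.9 points (-29.0 to -11.9) without chromosomes 8 and 11. Their median WT signal was also lower, at 11.3 against 13.8, and its part in the difference was not tested. In KO mESC 79 of the 204 were covered at 50% by H3K27me3, and in EB 109 in WT and 115 in KO at week 1, 120 and 132 at week 2, and 142 and 137 at week 3.

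The Hoxb and Hoxc clusters, whose genes pattern the body axis, were broad in WT mESC and the Hoxa and Hoxd clusters were not. All 10 Hoxb and all 9 Hoxc starts lay in broad domains, 2 per cluster. They were 156.0 kb long at Hoxb1 to Hoxb9, 57.2 kb at Hoxb13, 88.4 kb at Hoxc4 to Hoxc11 and 40.3 kb at Hoxc12 and Hoxc13. The longest domain over Hoxa was 28.6 kb, just under the threshold, and that over Hoxd 22.1 kb. From its first to its last gene, chr11:96055630-96229570, the Hoxb cluster was covered by H3K4me3 on 78.3% of its length in WT mESC and 44.9% in KO mESC, on 61.6% in WT and 35.4% in KO at week 1, on 36.1% and 60.8% at week 2, and on 60.4% and 57.5% at week 3. The Hoxc cluster, chr15:102751534-102867274, was covered on 95.5% in WT mESC and 47.2% in KO mESC, and in EB on 22.8% and 9.37%, 38.4% and 50.7%, and 63.7% and 58.2% in WT and KO at weeks 1, 2 and 3. KO values were lower than WT in mESC and at week 1 in both clusters, higher at week 2 and lower by less at week 3. The clusters that were not broad had the same order up to week 2. Hoxa was covered on 56.6% in WT and 35.7% in KO mESC, 48.6% and 22.1% at week 1, and 74.5% and 95.4% at week 2. Hoxd had 44.96% and 17.6%, 51.3% and 9.04%, and 35.5% and 49.8%. At week 3 KO was lower in Hoxd, at 56.6% against 73.98%, and higher in Hoxa. The order up to week 2 was thus not particular to the broad clusters. H3K27me3 covered 100.0% of all 4 Hox clusters in all 8 lists. Chromosome 11, which carries Hoxb, is one of the chromosomes that stood apart.

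H3K9me3 over broad domains lay mostly on chromosomes 8 and 11 in WT mESC. It covered at least 50% of 368 broad domains (25.9%, interval 23.7 to 28.2; 23.1% of all WT mESC H3K4me3 domains), of which 260 were on these chromosomes. The difference from domains of 15 to 30 kb was 5.50 points (2.83 to 8.23) with all chromosomes and -1.36 points (-3.60 to 1.07) without chromosomes 8 and 11, where the share of broad domains was 10.9%. In KO mESC 825 broad domains were covered (58.0%, 55.4 to 60.6; 42.0% of all), among them 287 of the 288 on chromosome 11. Without chromosomes 8 and 11 the KO share was 48.8%, which was 5.06 points above that of domains of 15 to 30 kb (1.39 to 8.72). Within broad domains H3K9me3 coverage was lowest near starts, 18.2% of the length within 1 kb and 48.4% beyond 20 kb in WT mESC, and 46.7% and 78.4% in KO mESC. Without chromosomes 8 and 11 these values were 7.47% and 28.8% in WT and 34.5% and 72.0% in KO. The KO list had fewer and longer H3K9me3 domains, and the part of this in the values near starts was not tested.

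**Figure D3:**
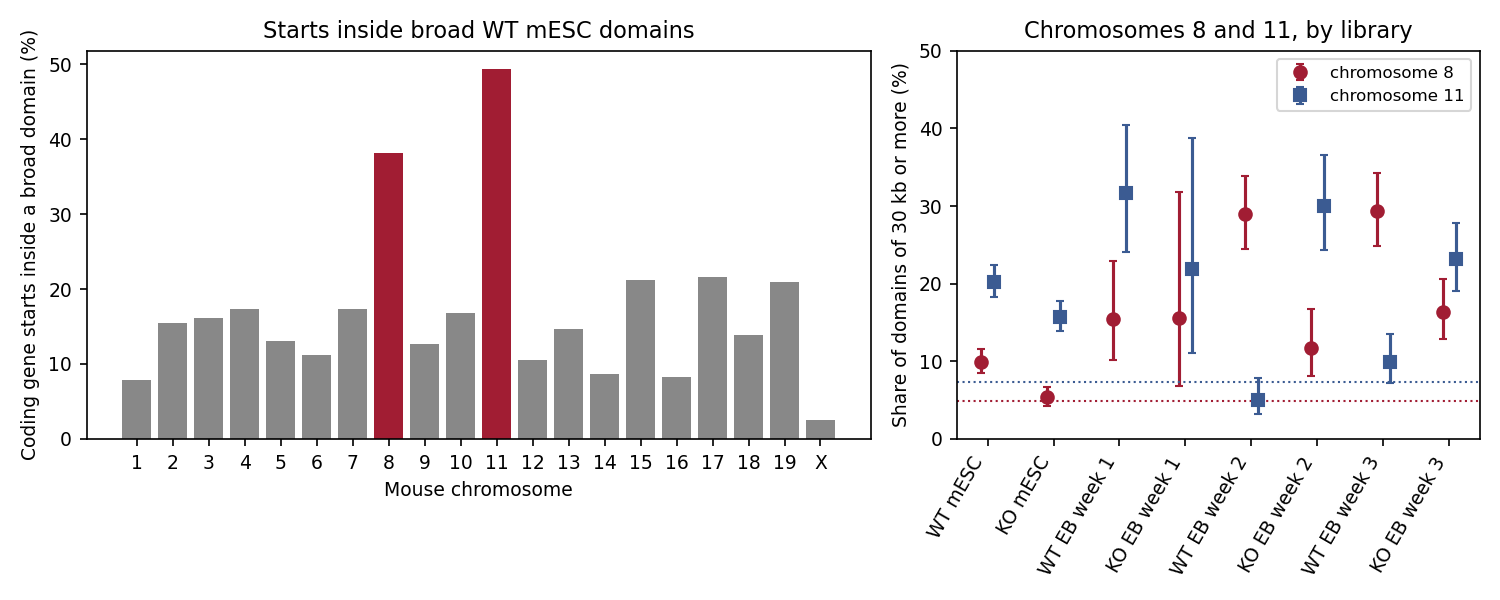
Left, share of the coding gene starts of each mouse chromosome that lay in a broad WT mESC domain (y axis, percent; chromosomes 8 and 11 in red). Right, share of all domains of at least 30 kb that lay on chromosome 8 (circles) or 11 (squares) in each of the 8 H3K4me3 libraries, with 95% Wilson intervals, and dotted lines at each chromosome's share of coding starts; chromosome 11 lies highest in WT EB at week 1 (31.7%) and chromosome 8 in WT EB at week 3 (29.3%).

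The broad domains were not spread over the chromosomes as genes are. Chromosome 11 held 288 of them (20.3%, interval 18.2 to 22.4) and 7.39% of coding starts, and chromosome 8 held 141 (9.92%, 8.47 to 11.6) and 4.83% of starts. Of the starts on chromosome 11, 49.3% lay in a broad domain, and of those on chromosome 8 38.1%, where the 17 other autosomes ranged from 7.92% to 21.5%. Chromosome X held 8. In the other H3K4me3 lists, as the chromosome plot shows, the domains of at least 30 kb were on chromosome 11 in 15.7% in KO mESC, 31.7% in WT and 21.9% in KO EB at week 1, 5.06% and 30.05% at week 2, and 9.97% and 23.2% at week 3. On chromosome 8 they were 5.37% in KO mESC, 15.4% and 15.6% at week 1, 28.9% and 11.7% at week 2, and 29.3% and 16.4% at week 3. At weeks 2 and 3 chromosome 8 thus led in WT and chromosome 11 in KO. The length left in KO mESC was lowest on chromosome 8, with a median of 62.1%, and next lowest on chromosome 11, with 76.8%, where the other autosomes ranged from 81.2% to 94.7%. What sets these chromosomes apart was not tested.

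**Figure D4:**
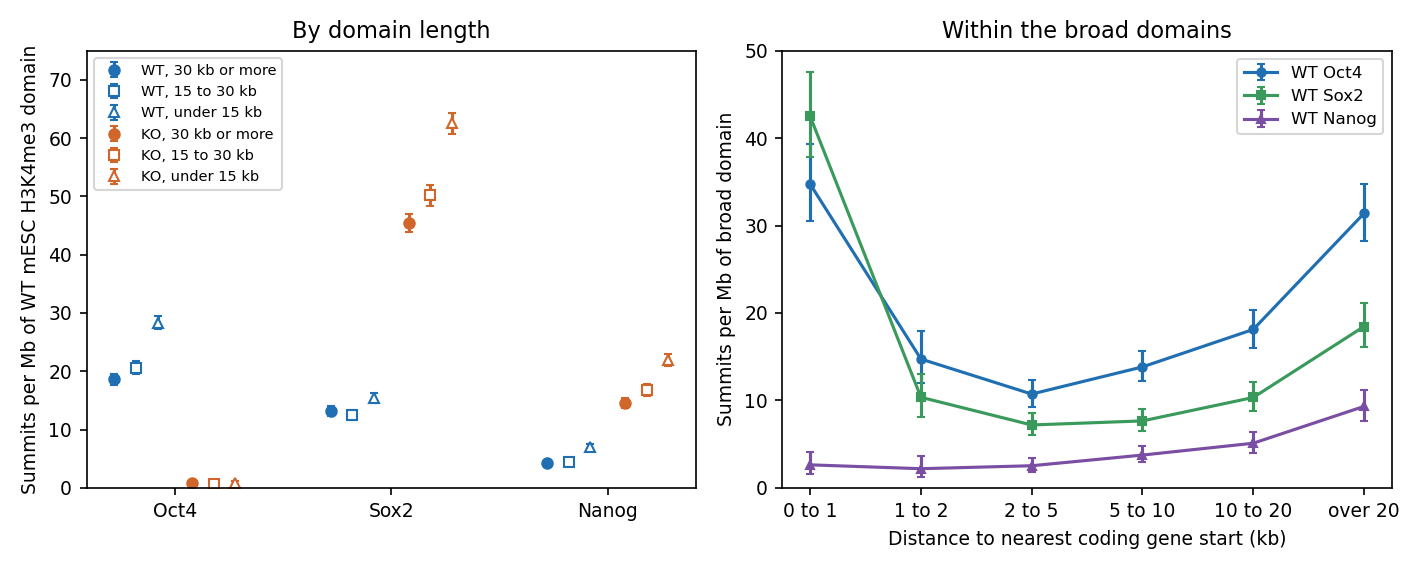
Left, summits of Oct4, Sox2 and Nanog per Mb of WT mESC H3K4me3 domain (y axis) in WT (blue) and KO (orange) mESC, for broad domains (filled circles) and 2 shorter classes (open symbols). Right, WT summits per Mb of broad domain by distance to the nearest coding start (x axis, kb); bars are exact 95% Poisson intervals, and Oct4 and Sox2 are densest within 1 kb of a start.

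Summits of at least 1 pluripotency factor lay in 749 of the broad domains (52.7%, and 24.8% of all WT mESC H3K4me3 domains). A WT Oct4 summit lay in 649 (45.6%, interval 43.1 to 48.2; 21.7% of all), a WT Sox2 summit in 535 (37.6%, 35.1 to 40.2; 14.5% of all) and a WT Nanog summit in 230 (16.2%, 14.4 to 18.2; 6.26% of all). All 3 factors were found in 203 domains (14.3%, and 5.26% of all) and none in 673 (47.3%, and 75.2% of all). Longer domains hold more summits by length alone, and per Mb the broad domains had fewer Oct4 summits than those under 15 kb, 18.6 (17.7 to 19.6) against 28.4 (27.2 to 29.6), with 20.6 (19.5 to 21.8) in those of 15 to 30 kb. Sox2 had 13.2 summits per Mb in broad domains (12.4 to 13.997) and 15.4 in those under 15 kb (14.6 to 16.3), but 12.4 in those of 15 to 30 kb (11.6 to 13.3), with an interval that overlapped that of the broad domains. Nanog had 4.32 in broad domains (3.87 to 4.81), 4.39 in those of 15 to 30 kb (3.88 to 4.95) and 6.97 in those under 15 kb (6.39 to 7.58). The whole genome held 4.78, 1.93 and 0.873 summits per Mb of the 3 factors in WT.

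Within the broad domains, Oct4 summits were densest next to starts and far from them. WT Oct4 had 34.7 summits per Mb within 1 kb of a coding start (30.6 to 39.3), 10.7 at 2 to 5 kb (9.26 to 12.4) and 31.4 beyond 20 kb (28.2 to 34.8). WT Sox2 had 42.5 (37.9 to 47.5), 7.19 (5.998 to 8.55) and 18.5 (16.1 to 21.1) at these distances. WT Nanog was low near starts, at 2.63 (1.58 to 4.11), and had 9.31 (7.64 to 11.2) beyond 20 kb. Per Mb, summits were densest in domains with no start or 1 start. The Oct4 rate was 32.5 per Mb in the 93 domains with no coding start, 29.4 in those with 1, 16.5, 13.0 and 11.9 in those with 2, 3 and 4, and 15.6 in those with 5 or more, and Sox2 had 22.4, 17.1, 10.3, 9.57, 9.52 and 14.3.

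At these Oct4 summits in KO mESC, Oct4 was mostly not called and Sox2 often was. Of the 1446 WT Oct4 summits in broad domains 36 had a KO Oct4 summit within 100 bp (2.49%, interval 1.80 to 3.43), 841 a KO Sox2 summit (58.2%, 55.6 to 60.7) and 522 a KO Nanog summit (36.1%, 33.7 to 38.6). At Oct4 summits of domains of 15 to 30 kb and under 15 kb the shares were much the same for KO Oct4, at 2.14% and 2.52%, and for KO Sox2, at 58.4% and 60.1%, and somewhat higher for KO Nanog, at 40.3% (37.7 to 43.1) and 41.8% (39.8 to 43.9). Of the 1446, 1264 (87.4%) lay in a KO H3K4me3 domain, where 76.8% of all broad domain length did. For Oct4 summits in domains of 15 to 30 kb and under 15 kb the shares were 80.3% and 57.2%. The KO Oct4 list was short, with 576 summits genome-wide against 12898 in WT, and the depth of both libraries is unknown. WT Sox2 summits had a KO Sox2 summit within 100 bp in 56.0% in broad domains (53.0 to 59.0). The share was 60.9% in domains of 15 to 30 kb (57.4 to 64.3), with an interval that overlapped. In domains under 15 kb it was 68.8% (66.1 to 71.4). For WT Nanog the shares were 82.1% (77.7 to 85.9), 83.6% (78.8 to 87.6) and 85.3% (82.0 to 88.0) in the same order, with intervals that overlapped. KO Sox2 and KO Nanog lists were longer than those of WT, and 1193 broad domains held a KO Sox2 summit (83.9%; 47.0% of all), 593 a KO Nanog summit (41.7%; 17.9% of all) and 44 a KO Oct4 summit (3.09%; 0.93% of all).

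The octamer ATGCAAAT, searched on both strands, was in 94 of the 1446 windows of 101 bp around WT Oct4 summits of broad domains (6.50%, interval 5.34 to 7.89), against 0.445% of all 768498 such windows tiling the broad domains. Around Oct4 summits of domains of 15 to 30 kb it was in 8.47% (7.05 to 10.1), with an interval that overlapped that of broad domains. Around those of domains under 15 kb it was in 8.83% (7.71 to 10.1) and around those outside H3K4me3 domains in 9.31% (8.68 to 9.97). The letters CATTGT, a core Sox site that can stand in the same window as the octamer, were in 10.5% of windows around WT Sox2 summits of broad domains (8.73 to 12.5), against 4.63% of tiling windows and 15.1% around Sox2 summits outside H3K4me3 domains. Around Sox2 summits of domains of 15 to 30 kb they were in 9.19% (7.34 to 11.4), and of those under 15 kb in 14.2% (12.3 to 16.3). Neither of the octamer sites printed above had a KO Oct4 summit within 100 bp. The site of Lin28a had a WT Sox2 summit there and no KO summit of the 3 factors, and that of Zfp42 had KO Sox2 and KO Nanog summits. Both lay in a KO mESC H3K4me3 domain, and that of Zfp42 lay outside the domains of KO EB at week 1.

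The broad domains with most Oct4 summits held from 7 to 19 coding starts, once a tie was broken by length. The Hist1 domain of 234.0 kb had 18 WT Oct4, 14 WT Sox2 and no WT Nanog summits, the Hoxb domain 16, 12 and 1, the Med24 domain 11, 12 and 2, a Hist1 domain of 31.2 kb from Hist1h1c to Hist1h1a 9, 8 and 0, and the Txnip domain 8, 6 and 2. Another 5 domains also had 8 WT Oct4 summits and were shorter, and 3 of these held a single coding start, that of Tgif1, Gse1 or Cdh1, the E-cadherin gene. The 7 domains with histone genes held 43 WT Oct4 summits, 60.6 per Mb against 18.2 per Mb in the other 1415. None of these 43 had the octamer in its window, which allows a share of up to 6.98% by the limit of 3 counts and 8.20% by Wilson's upper bound, where 94 of the 1403 others did (6.70%, interval 5.51 to 8.13). This comparison was made after the values were seen.

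Uhrf1 windows, of 10 kb each, met 83 broad domains (5.84%, interval 4.73 to 7.18; 2.97% of all WT mESC H3K4me3 domains), against 3.75% of those of 15 to 30 kb, a difference of 2.09 points (0.75 to 3.57). A longer domain meets a window more easily. By length the windows covered 1.56% of the broad domains, 1.64% of those of 15 to 30 kb and 5.14% of the genome. They covered at least 50% of 0.84% of broad domains and of 1.09% of those of 15 to 30 kb. That difference was -0.25 points, with an interval that held 0 (-0.82 to 0.45). H3K4me3 in KO mESC covered 50% of 63 of the 83 (75.9%, 65.7 to 83.8) and of 1148 of the other 1339 (85.7%, 83.8 to 87.5), a difference of -9.83 points (-20.2 to -1.67). Of the 83, 38 also had H3K27me3 on at least 50% of their length, against 166 of the others, and the part of that mark in the difference was not tested.

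**Figure D5:**
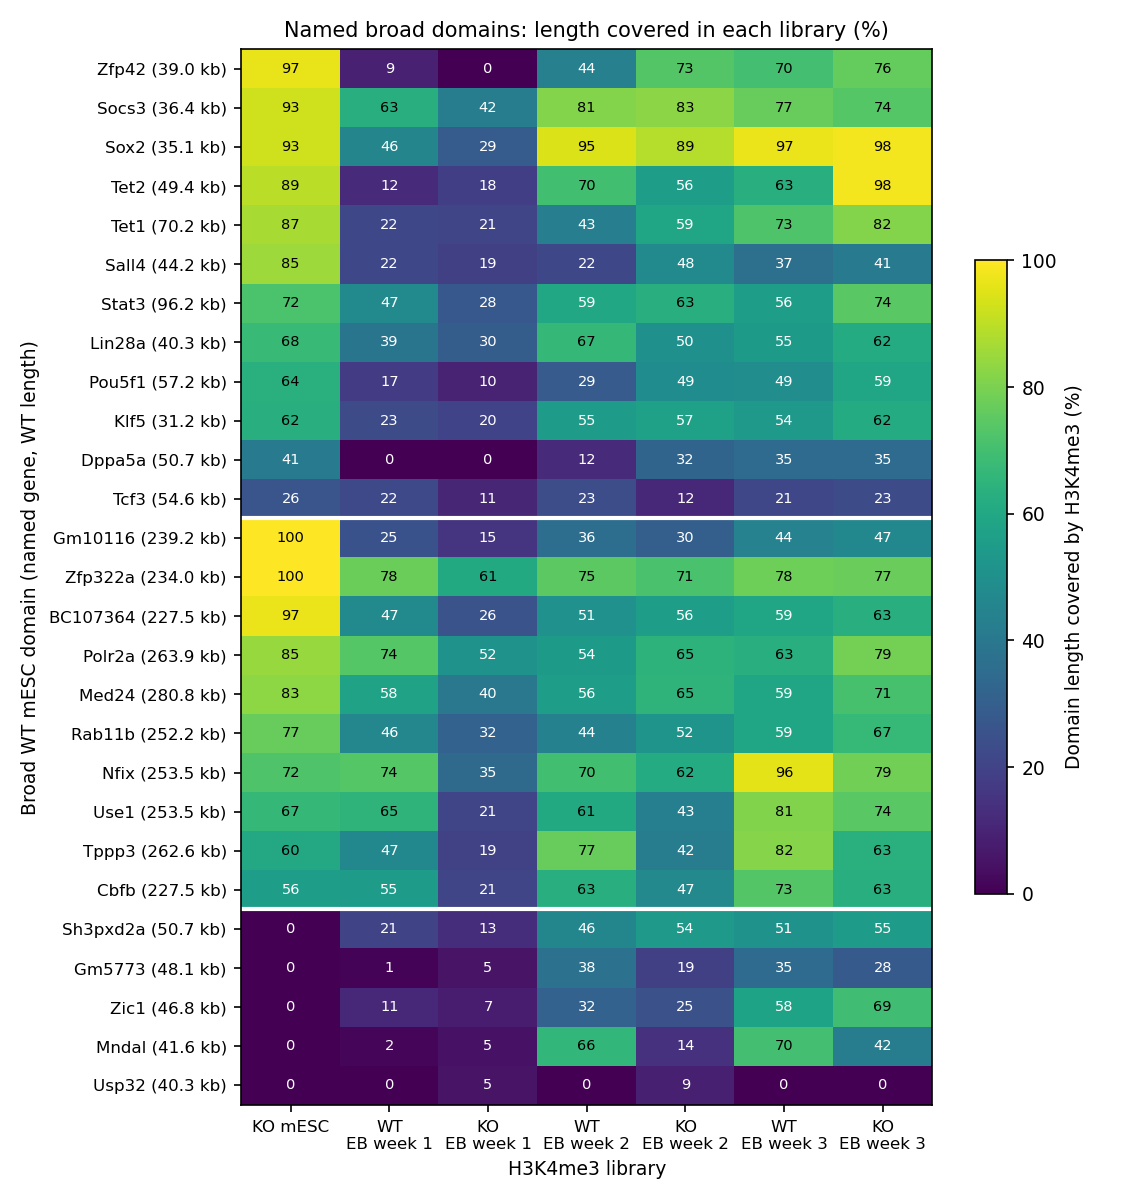
Share of the length of named broad WT mESC domains (rows, with the gene and the WT length in kb) that was covered by H3K4me3 domains of each of the 7 other libraries (columns); numbers and colours are percent. White lines part the 12 domains with genes of the pluripotency lists (E2A, shown as Tcf3, included), the 10 longest domains and the 5 longest with none left in KO mESC; the column of KO EB at week 1 is the darkest in the upper group, at 0.0% to 42.3%.

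The 11 domains with pluripotency genes, E2A left out, were covered on 41.0% to 96.7% of their length in KO mESC, and 10 of them on at least 50%. The Sox2 domain, of the factor that binds beside Oct4, was covered on 92.6% in KO mESC, on 45.6% in WT and 28.9% in KO at week 1, on 94.9% and 88.7% at week 2, and on 97.2% and 98.3% at week 3. It held 7 WT Oct4, 4 WT Sox2 and 1 WT Nanog summits and was the only 1 of the 11 with WT H3K27me3 on over 50% of its length, at 56.4%. The Pou5f1 domain was covered on 63.6% in KO mESC, on 17.3% and 9.79% in WT and KO at week 1, on 28.7% and 48.6% at week 2, and on 49.0% and 58.7% at week 3. The Pou5f1 domain was thus covered more in KO than WT at weeks 2 and 3, and the Sox2 domain was near full coverage in both. Coverage of the whole Pou5f1 domain, which held other starts, does not show where in it the mark lay. At week 1 an H3K4me3 domain lay within 2 kb of the Pou5f1 start in WT, and none did in KO.

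The Zfp42 domain, of a zinc finger gene also called Rex1 that marks naive cells, had no KO coverage at week 1. It was covered on 96.7% in KO mESC, 9.23% in WT and 0.0% in KO EB at week 1, 43.6% and 73.3% at week 2, and 70.3% and 76.4% at week 3. H3K9me3 covered it whole in both mESC lists. The Dppa5a domain, of an RNA-binding protein of stem cells, was at 41.0% in KO mESC, at 0.0% in both lists of week 1, at 12.0% in WT and 32.1% in KO at week 2, and at 34.9% in both at week 3. Tet2, which oxidizes methylated cytosine, was at 89.5% in KO mESC, 12.1% and 18.4% at week 1, 69.6% and 56.0% at week 2, and 63.2% and 98.2% at week 3. Tet1 was at 87.0% in KO mESC, 21.8% and 20.9% at week 1, 42.9% and 59.3% at week 2, and 72.5% and 81.6% at week 3. The E2A domain (Tcf3) was covered less than these 11 in KO mESC, at 26.2%, and stayed between 10.9% and 23.4% in the 6 EB lists. Socs3, a feedback inhibitor of Stat3, had the highest week 1 values, 62.6% in WT and 42.3% in KO, and the plot of named domains gives the remaining values.

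Among the 10 longest domains the order of KO and WT at week 1 was the same in each. KO coverage at week 1 was lower in all 10, from 15.4% against 25.3% at Gm10116 to 60.6% against 77.6% at the Hist1 domain. At week 2 the order differed, with the 4 domains on chromosome 8 lower in KO, at 42.1% against 76.6% for Tppp3 and 43.2% against 60.7% for Use1, and both on chromosome 11 higher in KO, at 65.1% against 55.6% for Med24 and 64.8% against 54.5% for Polr2a. At week 3 the 4 on chromosome 8 were again lower in KO and both on chromosome 11 higher. Over all broad domains, the log2 ratio of covered length in KO over WT was -0.46 on chromosome 8 and 0.39 on chromosome 11 at week 2, and -0.21 and 0.33 at week 3, while at week 1 it was below 0 on both, at -1.23 and -0.52.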

How the data were processed

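Domains of at least 30 kb were taken from the WT mESC H3K4me3 list. The authors aligned reads to mm9 with Bowtie2 2.1.0 and called histone domains with RSEG against input, factor summits with MACS, and Uhrf1 windows by fold over input. In the deposited lists a domain has a signal (its average reads in a bin) and a domain score, and a summit has a signal (its height in reads). Coverage shares, counts and intervals were computed with Python 3.11.15, numpy 2.4.6, pandas 2.3.3 and scipy 1.17.1, with genes and sequence from NCBIM37. Every group is 1 library, so no p-value is given, and intervals over neighbouring domains are likely too narrow because these are not independent. Named domains were the 10 longest, the 5 with least and the 5 with most length left in KO mESC (ties by length), the 5 with most WT Oct4 summits, and those with a pluripotency gene start. Hox and other domains named beside gene lists or sequences fell outside this rule and were chosen after their values were seen. The members and lists were chosen with earlier results of these data known. The domain score was used only for an alternative. The code was tested on simulated data, with 0 of 2400 coverage values and 0 of 1422 planted shares wrong. A further octamer site is not reported here.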

Additional observations from a re-analysis of the deposited data

Results flagged for a closer look

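The difference between KO and WT EB in H3K4me3 over the broad WT mESC domains was not alike at the 3 weeks. The log2 ratio of covered length, KO over WT, was -0.63 for week 1, -0.022 for week 2 and 0.067 for week 3. Without chromosomes 8 and 11 it was -0.57, -0.082 and 0.039. The log2 ratio of the number of H3K4me3 domains of at least 30 kb anywhere in the genome was -1.94 for week 1, -0.74 for week 2 and 0.012 for week 3. Each ratio compares 1 library with 1 library, so the differences between weeks were not tested.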

How the results depend on the processing

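Of 84 recomputed values of 14 shares, 41 stayed within the interval of the reported share and 43 did not. With a minimum of 20 kb, coverage of 50% was found in 82.3% in KO mESC, 8.17% in KO EB at week 1 and 52.5% in WT EB at week 2, H3K27me3 in 17.0%, H3K9me3 in 23.7%, a coding start in 89.4%, and Oct4, Sox2 and Nanog summits in 39.1%, 30.5% and 13.4%. With 40 kb the values outside were 67.9% for KO EB at week 3, 12.4% for H3K27me3, 95.8% for a coding start, and 52.2%, 45.4% and 19.4% for the 3 factors. Counting any overlap gave 98.6% in KO mESC, 98.4% and 97.0% in WT and KO EB at week 1, 98.9% and 99.6% at week 2, 99.6% and 99.5% at week 3, 33.2% for H3K27me3 and 44.4% for H3K9me3. With only the higher-scoring domains of each list (score at or over its median), the values outside were 81.2% in KO mESC, 23.8% in WT EB at week 1, 44.4% and 41.6% in WT and KO at week 2, 54.0% and 60.3% at week 3, 10.7% for H3K27me3 and 23.5% for H3K9me3. With only summits at or above the median height they were 33.2%, 21.7% and 11.3% for Oct4, Sox2 and Nanog. Leaving out chromosomes 8 and 11, an alternative chosen after seeing the data, gave 87.5% in KO mESC, 23.6% in WT EB at week 1, 43.3% in KO at week 2, 61.3% in WT at week 3, 11.4% for H3K27me3, 10.9% for H3K9me3, 42.9% for Oct4 and 29.9% for Sox2. Joining EB domains at most 2 kb apart, also chosen after seeing the data, moved none of its 6 shares outside. It closed only the shortest EB gaps and did not bring the EB lists to the smallest gap of WT mESC, 5200 bp. Joining WT mESC domains at most 2 kb apart changed nothing, since no gap was that short. The share with a Uhrf1 window stayed within its interval under every alternative run on it. No paired analysis was possible because the labels give no replicate numbers and each group is 1 library. The depth of the libraries is unknown, so a region missing from a list may be unmarked or too thinly sequenced.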
